A study of Mus musculus with 6 samples.

Results

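The Dhrs genes encode members of the short-chain dehydrogenase/reductase (SDR) family, enzymes that move hydride between a nicotinamide cofactor and the hydroxyl or carbonyl group of a small molecule. The 8 described here, Dhrs1, Dhrs3, Dhrs4, Dhrs7, Dhrs7b, Dhrs9, Dhrs11 and Dhrs13, were taken by symbol from 25509 gene rows of a count table. They were chosen by the lower mRNA level of Dhrs7 in ACE-overexpressing macrophages, so every difference between genotypes below is a description of the contrast that picked the family and carries no test. All 8 passed the filter on low counts, as did 12827 genes in all.

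The 6 libraries came from C57BL/6 mice and formed 2 groups of 3, wild-type (WT) and JWT (Tg-ACE), a line that overexpresses angiotensin-converting enzyme (ACE). In both groups macrophages were drawn into the peritoneal cavity by thioglycollate, an irritant, recovered on day 4, enriched over Percoll and kept if they stuck to plastic within 2 h. The labels give neither the promoter behind the overexpression nor the age of the mice, nor do they say that each replicate was a separate mouse, so the spread between replicates may be partly technical. The sample descriptions also hold an experiment code that the labels do not explain. It reads Exp-156 for replicate 1 of each genotype, and Exp-156b for the others.

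Library totals lay between 24294258 and 28120394 counts. Ace stood at 16.7, 7.59 and 11.6 CPM (counts scaled to library size) in WT replicates 1 to 3 and at 100.5, 25.6 and 31.8 CPM in Tg-ACE. Macrophage markers were abundant in every library, with Lyz2 at 14302 CPM or above and Cd68 at 1954 CPM or above, and other cell types were present at lower levels. Of the eosinophil and neutrophil markers, Siglecf ran from 8.27 to 75.4 CPM and S100a8 from 8.43 to 13.1 CPM, while Epx and Ly6g reached at most 0.141 and 0.041 CPM. The codes also differed in sex markers. Xist was at 0.41 and 0.53 CPM in the Exp-156 libraries but between 327.1 and 454.3 CPM in the Exp-156b libraries, and Ddx3y at 47.9 and 51.5 CPM against at most 0.11 CPM, so code and sex cannot be told apart here.

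SDR enzymes act on retinoids, steroids, fatty acid derivatives and foreign carbonyl compounds, and many sit in the membrane of the endoplasmic reticulum or in peroxisomes. Several of the enzymes described here touch vitamin A. Dhrs3 returns retinaldehyde to retinol and is itself induced by retinoic acid, Dhrs9 can oxidise retinol, and Dhrs4 is a peroxisomal reductase of retinaldehyde and other carbonyls. Dhrs7b is the peroxisomal reductase of ether lipid synthesis, Dhrs11 reduces ketosteroids, and Dhrs7 is a membrane-bound reductase of the endoplasmic reticulum that accepts steroids and other carbonyl compounds.

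The genes are scattered over 5 chromosomes of GRCm38. Dhrs7 lies on chromosome 12 at 72650353 to 72664909 on the reverse strand, Dhrs9 on chromosome 2 at 69380445 to 69404533 and Dhrs3 on chromosome 4 at 144892827 to 144928209, both forward. Dhrs7b (60830631 to 60860195), Dhrs13 (78032280 to 78037866) and Dhrs11 (84820856 to 84828994) share chromosome 11 but are separated by 17172 and 6783 kb. Dhrs4 (55478758 to 55490340) and Dhrs1 (55739020 to 55745690) are 248.7 kb apart on chromosome 14, in opposite orientation. Of the 8, only Dhrs13 overlaps another annotated gene, the antisense transcript Dhrs13os over 386 bases, and no source used here gives the strand setting of the counting, so its reads could not be assigned to a strand.

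The stretches upstream of 4 of these genes are shown. They are Dhrs7, the gene that differed between genotypes, and Dhrs3, Dhrs9 and Dhrs7b, the genes that were lower in Exp-156b. Dhrs4 and Dhrs11, which were higher in Exp-156b, are not printed. Any link between these stretches and the differences was not tested. The sequences are RefSeq's for GRCm38.p6, 5′ to 3′ on the strand of the gene and ending before the first annotated start. They cover chr12:72664910-72665078 (reverse strand), chr4:144892577-144892826, chr2:69380212-69380444 and chr11:60830381-60830630 (forward strand). Capitals mark matches to the 7 motifs searched for on both strands.
Dhrs7: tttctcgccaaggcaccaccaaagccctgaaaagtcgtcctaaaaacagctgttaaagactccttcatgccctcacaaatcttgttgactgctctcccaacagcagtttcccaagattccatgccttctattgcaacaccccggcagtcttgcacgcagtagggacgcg
Dhrs3: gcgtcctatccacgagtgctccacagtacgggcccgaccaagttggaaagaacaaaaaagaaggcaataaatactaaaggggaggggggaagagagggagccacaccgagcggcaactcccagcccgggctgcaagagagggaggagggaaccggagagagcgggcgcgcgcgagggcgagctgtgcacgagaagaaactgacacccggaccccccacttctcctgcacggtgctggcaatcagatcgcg
Dhrs9: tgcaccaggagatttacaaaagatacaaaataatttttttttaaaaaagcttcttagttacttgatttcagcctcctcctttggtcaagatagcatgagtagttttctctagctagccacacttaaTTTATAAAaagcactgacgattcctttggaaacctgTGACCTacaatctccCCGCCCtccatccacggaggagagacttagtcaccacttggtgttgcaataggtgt
Dhrs7b: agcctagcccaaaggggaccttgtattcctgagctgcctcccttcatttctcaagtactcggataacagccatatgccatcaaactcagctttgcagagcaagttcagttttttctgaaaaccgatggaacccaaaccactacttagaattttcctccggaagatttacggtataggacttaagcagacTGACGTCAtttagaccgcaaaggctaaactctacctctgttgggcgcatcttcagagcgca

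In the 250 bases before the RefSeq start the motifs were the GC box (GGGCGG, present in 32.7% of 32851 promoters), the CCAAT box (CCAAT, 33.8%), the TATA box (TATAAA, 12.4%), the nuclear receptor half-site (AGGTCA, 14.0%), the AP-1 site (TGACTCA, 4.46%), the cAMP response element (TGACGTCA, 1.55%) and the E-box (CACGTG, 6.02%). Dhrs7 and Dhrs3 held none of these letters. Dhrs3 has 3 RefSeq promoter windows, and only the most upstream was searched. Dhrs9 held the TATA box on both strands in overlapping copies, a nuclear receptor half-site, a GC box and, beyond the printed stretch, an AP-1 site. Dhrs7b held the cAMP response element 61 bases before its start. Dhrs11 had 2 CCAAT boxes and a GC box, and Dhrs1, Dhrs4 and Dhrs13 had none of the 7. The windows also differed in base composition, from 40.4% G and C with 3 CpG pairs in Dhrs9 to 74.0% with 38 pairs in Dhrs1, against medians of 52.4% and 6 over all promoters. Dhrs7 stood at 57.2% with 13 pairs and Dhrs3 at 61.6% with 19.

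The enzymes were present at very different levels. Scaled per kilobase of annotated exon, Dhrs3 averaged 121.9 CPM per kb over the 6 libraries, Dhrs1 33.1, Dhrs9 21.2, Dhrs7 20.4, Dhrs4 10.3, Dhrs11 6.23, Dhrs7b 4.73 and Dhrs13 0.695. In this order the ranges of neighbours overlapped for Dhrs1 and Dhrs9, for Dhrs9 and Dhrs7, and for Dhrs11 and Dhrs7b. Dhrs3 stood above Dhrs1 in 6 of 6 libraries. Dhrs13 rested on 211 counts over all libraries, against 55850 for Dhrs3. The remaining Dhrs-named genes of the table were at or near 0. Dhrs2 had 2 counts in WT replicate 1 and none elsewhere, and Dhrs7c had 0 in all libraries. For a count of 0, 3 counts, between 0.107 and 0.123 CPM, were taken as the upper limit from counting error.

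**Figure D1:**
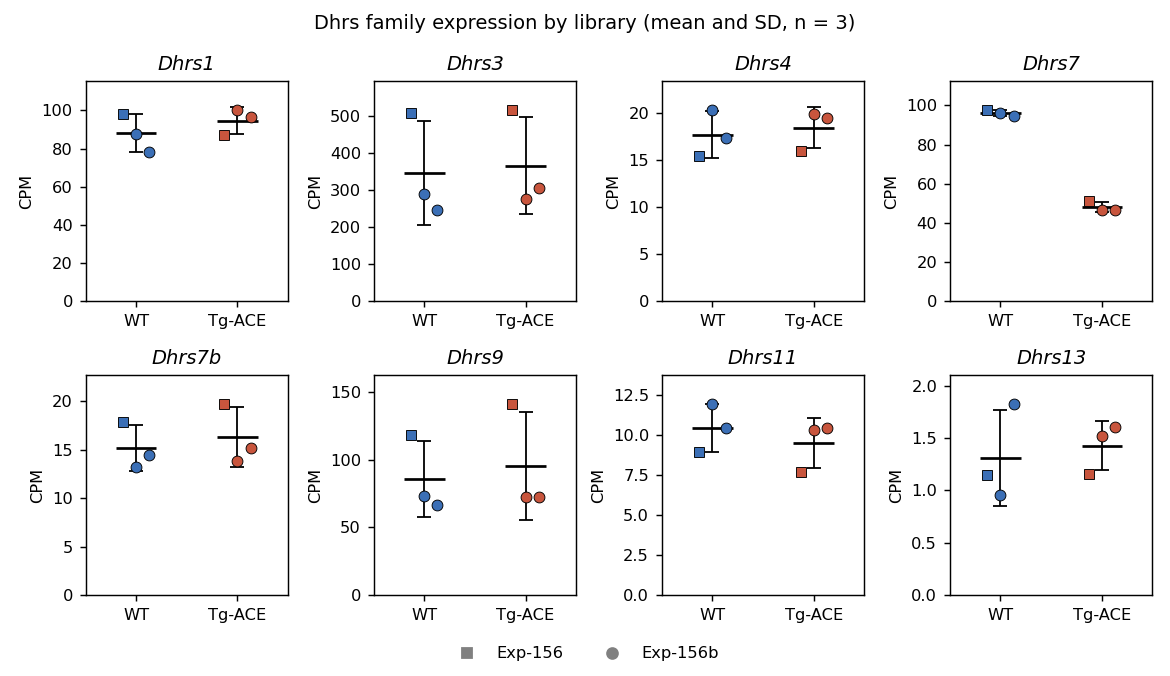
CPM of each Dhrs gene (vertical axes, starting at 0) in the 3 WT and 3 Tg-ACE libraries, with squares for Exp-156, circles for Exp-156b, bars for the mean and whiskers for the SD. Dhrs7 separates the genotypes, with 94.8 CPM as the lowest WT value and 51.0 CPM as the highest Tg-ACE value, while squares and circles separate in Dhrs3, Dhrs4, Dhrs7b, Dhrs9 and Dhrs11. The share of all genes that separate by code was not counted.

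Dhrs7 was the one family member whose level followed genotype. It stood at 97.8, 95.9 and 94.8 CPM in WT replicates 1 to 3 and at 51.0, 46.7 and 46.6 CPM in Tg-ACE replicates 1 to 3, from 2394, 2703, 2387, 1453, 1173 and 1135 counts. The groups did not overlap, and each was tight, at 96.2 ± 1.51 CPM in WT and 48.1 ± 2.52 CPM in Tg-ACE (SD, n = 3), so that Tg-ACE held 50.0% of the WT level. The log2 fold change was -0.999 (SE 0.08), and the log2 CPM difference was -0.94 between the libraries of Exp-156 and -1.03 between those of Exp-156b. Per kilobase Dhrs7 was the third most abundant of the family in WT, at 27.2 ± 0.43 CPM per kb (SD, n = 3), above Dhrs9 at 20.1 ± 6.56, although both read 27.6 in WT replicate 1. In Tg-ACE it stood at 13.6 ± 0.71 against 22.3 ± 9.36 CPM per kb for Dhrs9 (SD, n = 3), and Dhrs9 was above it in each of those libraries.

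The other 7 members gave log2 fold changes between -0.14 and 0.15, each with WT and Tg-ACE libraries that overlapped. These small values moved when single libraries were left out. Without WT replicate 1 the value was 0.46 for Dhrs3 and 0.45 for Dhrs9, and without Tg-ACE replicate 1 it was -0.26 and -0.25. Either step left Exp-156 in a single genotype, so that genotype and code were no longer balanced. With the code as a term the value was 0.09 (SE 0.08) for Dhrs3 and 0.12 (SE 0.07) for Dhrs9. For Dhrs13 the value was 0.44 without WT replicate 3 and -0.06 without WT replicate 2. With a replicate left out Dhrs1 lay between 0.03 and 0.19, Dhrs4 between -0.03 and 0.17, Dhrs7b between -0.07 and 0.24 and Dhrs11 between -0.24 and -0.01. Among the retinoid enzymes, Dhrs3 stood at 507.4, 288.6 and 246.4 CPM in WT and 517.2, 276.8 and 305.0 in Tg-ACE, a log2 fold change of 0.08 (SE 0.36). Dhrs9 stood at 118.2, 73.0 and 66.8 CPM in WT and 141.6, 72.2 and 72.3 in Tg-ACE, a log2 fold change of 0.15 (SE 0.35). In both genes replicate 1 of each genotype was the highest library, and this spread set the size of the error. Dhrs4 stood at 15.4, 20.3 and 17.3 CPM in WT and 15.9, 19.8 and 19.4 in Tg-ACE, a log2 fold change of 0.06 (SE 0.15).

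Among the remaining enzymes, Dhrs7b, the ether lipid reductase and the closest to Dhrs7 by name, stood at 17.9, 13.2 and 14.5 CPM in WT and 19.8, 13.9 and 15.2 in Tg-ACE (log2 fold change 0.10, SE 0.19). The ketosteroid reductase Dhrs11 stood at 8.99, 11.99 and 10.5 CPM in WT and 7.69, 10.4 and 10.5 in Tg-ACE (log2 fold change -0.14, SE 0.19). Apart from Dhrs7 it was the only member below 0, and its log2 CPM difference was below 0 under both codes (-0.22 and -0.10). Dhrs1 stood at 98.2, 87.9 and 78.2 CPM in WT and 86.9, 100.3 and 96.8 in Tg-ACE, a log2 fold change of 0.10 (SE 0.11). Its log2 CPM difference was -0.18 in Exp-156, 1 library against 1, and 0.25 in Exp-156b. The signs differed, but the interaction with the code did not pass in edgeR (quasi-likelihood test, adjusted p = 0.690). Dhrs13 stood at 1.14, 0.96 and 1.83 CPM in WT and 1.16, 1.51 and 1.60 in Tg-ACE (0.12, SE 0.34).

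The counts of calls between genotypes are given for completeness, and nothing is read from them, since Dhrs7 picked the family through this contrast. With genotype as the sole term 0 of the 8 passed in edgeR (quasi-likelihood test, Benjamini-Hochberg adjustment), where 0% of 12827 genes passed and 126 had an unadjusted p under 0.05. DESeq2 called 9 genes on the same counts, and 1 of them was a member, Dhrs7. With the experiment code as a term edgeR called 1 of the 8, Dhrs7, where 0.0151% of 13256 genes passed, and with the replicate number as a block it also called 1. Groups that do not overlap were found for 1 of 8 lower in Tg-ACE, again Dhrs7, and for 0 of 8 higher. The shares over all tested genes were 2.52% and 2.35%. The median log2 fold change was 0.09 over the 8 members and -0.01 over all genes tested.

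The position of Dhrs7 within the family's total followed from these levels. Of the CPM per kb summed over the 8 genes, Dhrs7 made up 9.71%, 13.7% and 15.2% in WT replicates 1 to 3 and 5.22%, 7.18% and 6.85% in Tg-ACE. The share was lowest in replicate 1 of each genotype, where Dhrs3 took 60.9% and 64.0% against 47.7% to 54.2% in the other libraries. The CPM of the other 7 genes summed to 767.3, 495.9 and 435.5 in WT and 790.3, 494.9 and 520.8 in Tg-ACE, groups that overlapped.

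The members other than Dhrs7 were taken by name and not by the experiment codes, so that contrast could be tested for them. Dhrs7 was picked by a difference between genotype groups that each held both codes. Such a choice favours a gene that varies little between codes, so its own code value is a description. In Exp-156b against Exp-156, with genotype in the fit, 5 of 8 members passed in edgeR (quasi-likelihood test, Benjamini-Hochberg adjustment over 13256 genes), against 43.2% of all tested genes. Of these, 3 were lower in Exp-156b, where 23.4% of genes were lower, and 2 were higher, where 19.8% were. With 8 genes, 62.5% is not far from that background. The median absolute log2 fold change was 0.37 over the members and 0.31 over all genes.

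Dhrs3 and Dhrs9 showed the widest differences. Dhrs3 averaged 512.3 ± 6.95 CPM in the 2 libraries of Exp-156 and 279.2 ± 24.7 CPM in the 4 of Exp-156b (SD), a log2 fold change of -0.87 (SE 0.09, edgeR adjusted p = 2.2e-04). Dhrs9 averaged 129.9 ± 16.5 and 71.1 ± 2.86 CPM (SD, n = 2 and 4), a log2 fold change of -0.86 (SE 0.07, edgeR adjusted p = 1.3e-04). In both, each Exp-156 library stood above each Exp-156b library, in both genotypes: the log2 CPM difference was -0.93 in WT and -0.83 in Tg-ACE for Dhrs3 and -0.76 and -0.97 for Dhrs9. Both calls were kept without any 1 library and by DESeq2.

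Dhrs7b was also lower in Exp-156b, at 14.2 ± 0.84 against 18.8 ± 1.33 CPM (SD, n = 4 and 2), a log2 fold change of -0.40 (SE 0.09, edgeR adjusted p = 0.01001). Dhrs4 and Dhrs11 were higher there. Dhrs4 averaged 19.2 ± 1.31 against 15.6 ± 0.39 CPM (log2 fold change 0.30, edgeR adjusted p = 0.0347) and Dhrs11 10.8 ± 0.79 against 8.34 ± 0.92 CPM (0.38, edgeR adjusted p = 0.0336; SD, n = 4 and 2 for each). The libraries of the codes did not overlap for any of the 3, as for Dhrs3 and Dhrs9. The share of all genes separated by code in this way was not counted, so nothing is read from the separation. The Dhrs7b call was lost without WT replicate 1 (adjusted p = 0.0501) or Tg-ACE replicate 1 (0.0870), where 1 library of Exp-156 was left. The Dhrs4 and Dhrs11 calls were lost in DESeq2 (0.0573 and 0.0502) and in edgeR without any library other than WT replicate 3 (0.0557 to 0.153 and 0.0630 to 0.189).

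Dhrs7 did not pass in the same test, with 74.4 ± 33.1 CPM in Exp-156 and 71.0 ± 28.1 in Exp-156b (SD, n = 2 and 4, both genotypes pooled), a log2 fold change of -0.08 (SE 0.06, edgeR adjusted p = 0.353). Nothing is read from this, since the choice of Dhrs7 by genotype favoured a small difference between codes. Dhrs1 and Dhrs13 did not pass either, at -0.03 (SE 0.10, edgeR adjusted p = 0.835) and 0.36 (SE 0.33, edgeR adjusted p = 0.410). The sign for Dhrs1 turned without WT replicate 1 (0.18) or WT replicate 3 (0.05).

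**Figure D2:**
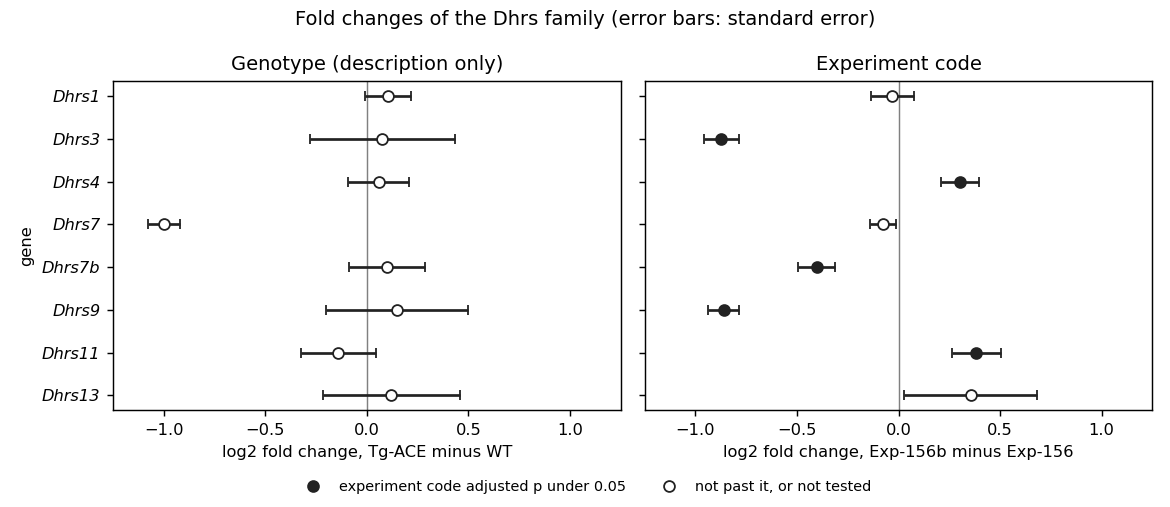
Log2 fold changes of the 8 genes between genotypes (left, Tg-ACE minus WT, not tested) and between experiment codes (right, Exp-156b minus Exp-156), with standard errors as whiskers and filled points for an edgeR adjusted p under 0.05. Dhrs7 stands at -0.999 on the left and -0.08 on the right, and Dhrs3 and Dhrs9 at 0.08 and 0.15 on the left and -0.87 and -0.86 on the right.

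Whether a member's genotype difference itself depended on the code was tested as an interaction. Of the 8 members 0 passed edgeR's quasi-likelihood test, where 0% of 13684 genes passed, 984 had an unadjusted p under 0.05, and DESeq2 called 13 genes, 0 of them members. The interaction had 2 residual degrees of freedom, all within Exp-156b. For Dhrs7 the genotype difference was 0.08 lower on the log2 scale in Exp-156b than in Exp-156 (interaction log2 value -0.08, SE 0.12, edgeR adjusted p = 0.876). Nothing is read from this value either, since the choice of Dhrs7 favoured little spread within each genotype. Dhrs1 had the widest interaction of the 8, 0.43 (SE 0.15, edgeR adjusted p = 0.690, unadjusted p = 0.0235).

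Other cell types moved with the codes. The summed CPM of 5 T and NK cell markers was 6.32 to 8.54 in Exp-156 and 0.699 to 2.34 in Exp-156b, that of 5 eosinophil and mast cell markers 54.1 to 108.6 and 12.2 to 25.4, and that of 4 dendritic cell markers 25.05 to 27.9 and 4.50 to 9.12. Siglecf (53.9 and 13.1 CPM on average), Cpa3 and Mcpt4 carried the second sum, while Epx and Prg2 stayed under 1 CPM. The third was carried mostly by Flt3 (13.2 and 0.263 CPM), and Ccr7 did not pass (5.63 and 3.55 CPM, edgeR adjusted p = 0.0596). The 5 neutrophil markers summed to 18.2 to 34.3 and 9.25 to 11.9 CPM, a difference carried by S100a9 (15.4 and 0.446 CPM on average), while S100a8 did not pass (10.8 and 9.54 CPM, edgeR adjusted p = 0.459) and Ly6g, Camp and Ngp stayed under 1 CPM. The summed mesothelial and fibroblast markers were at 55.6 to 67.3 CPM in Exp-156 and 118.7 to 233.4 CPM in Exp-156b. Of these 5, Col1a1, Pdgfra and Upk3b were higher in Exp-156b in edgeR, Krt19 was lower (6.06 and 3.43 CPM, log2 fold change -0.82) and Msln did not pass (-0.48). The 4 B cell markers overlapped (89.0 to 114.2 and 50.5 to 115.6 CPM), as did the summed macrophage markers (21304 to 21427 and 17973 to 21904 CPM). Most of that macrophage sum was Lyz2. Within the macrophage list Adgre1 (630.8 and 645.1 against 213.5 to 350.8 CPM) and Csf1r (727.9 and 793.2 against 546.5 to 589.2 CPM) were higher in the Exp-156 libraries. Itgam (1676 and 490.0 CPM on average in its main entry) and Fcgr1 (130.1 and 36.9 CPM) were higher there too. Cd68, Lyz2 and Mertk did not pass between the codes in edgeR. In bulk RNA fewer cells of a type and less RNA per cell cannot be told apart, and the part of these markers in the differences of Dhrs3, Dhrs9, Dhrs7b, Dhrs4 and Dhrs11 was not tested. Between genotypes the summed T and NK markers ran from 0.954 to 8.54 CPM in WT and from 0.699 to 6.32 CPM in Tg-ACE, and the WT and Tg-ACE ranges of every cell type list overlapped.

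The wider SDR family was described between genotypes in the same way. Of 47 tested genes in lists of retinol, hydroxysteroid and other SDR enzymes, the genotype log2 fold changes ran from -0.59 to 0.53, with a median of 0.05, and 0 passed in edgeR with or without the code as a term. Groups did not overlap for 3 of the 47, all higher in Tg-ACE, where 2.35% of all tested genes were higher in this way. They were Pecr, a peroxisomal enoyl-CoA reductase (2.17, 3.37 and 3.62 CPM in WT, 4.29, 4.34 and 4.60 in Tg-ACE, log2 fold change 0.53), Tsta3, which makes GDP-fucose (0.16), and Hsdl1 (0.04). Lower without overlap were 0 of the 47, against 2.52% of all tested genes. The lowest value, -0.59, belonged to Hsd17b14, which stood at 2.59 ± 1.004 CPM in WT and 1.73 ± 0.78 in Tg-ACE (SD, n = 3).

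Between the codes 17 of 48 tested SDR genes passed in edgeR, 9 higher and 8 lower in Exp-156b, a smaller share than the 43.2% of all tested genes, so the count sets nothing apart for these enzymes. Cbr2, a carbonyl reductase, had the widest difference, at 87.9 CPM in Exp-156 and 1.66 in Exp-156b on average (log2 fold change -5.72). Among the hydroxysteroid enzymes Hsd11b1, which regenerates active glucocorticoid, was lower in Exp-156b (-2.49) and Hsd17b14 higher (1.155). Among the retinol enzymes Rdh5 (-1.72) and Rdh12 (-1.54) were lower and Rdh13 (0.65) and Rdh11 (0.26) higher. Of the other lists' genes Htatip2 (0.68) and Cbr3 (1.09) were higher. Without WT replicate 1 or Tg-ACE replicate 1 the count was 11.

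The retinoid pathway, in which Dhrs3 and Dhrs9 act, was counted in the same way. Of 14 tested genes 7 were lower and 1 higher in Exp-156b in edgeR, where 23.4% and 19.8% of all tested genes were, with a median log2 fold change of -0.51 against -0.01 over all genes. The retinoic acid receptor Rara had 39.1 and 40.5 CPM in the libraries of Exp-156, against 14.7 to 16.4 CPM in those of Exp-156b (log2 fold change -1.35, edgeR adjusted p = 2.3e-05). The receptor Rarg averaged 56.1 and 15.6 CPM (-1.83), and Bco2, a carotenoid-cleaving enzyme, was also lower (-1.72). Cyp26a1, which degrades retinoic acid, averaged 16.4 and 0.40 CPM (-5.12), and its Exp-156 libraries were themselves far apart, at 29.1 CPM in WT and 3.76 CPM in Tg-ACE. The count of retinoid genes that passed was 11 without WT replicate 2 and 8 without any other library of Exp-156b. Without either library of Exp-156, which left 1 library in that code, fewer retinoid genes passed, and fewer of all genes did. Between genotypes 0 of the 14 passed in edgeR, with a median log2 fold change of -0.05.

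Ether lipid synthesis, the pathway of Dhrs7b, held 3 of 8 tested genes that passed between the codes, a share below the 43.2% of all tested genes. Far1 and Far2 of this list are also counted among the other SDR genes above. Of those that passed, Agps (93.0 and 62.8 CPM on average, log2 fold change -0.56) and Far1 (82.8 and 53.2 CPM, -0.63) were lower in Exp-156b. Chpt1, the cholinephosphotransferase, was higher (0.30). The other tested genes of the list did not pass, and its median log2 fold change between the codes was -0.13. Between genotypes 0 of the 8 passed in edgeR, with a median log2 fold change of -0.01.

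**Figure D3:**
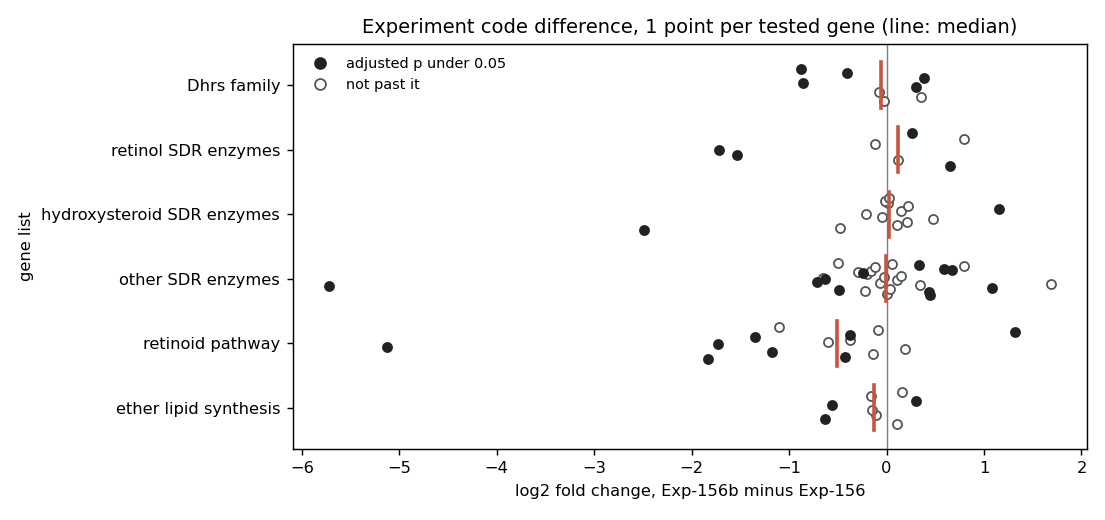
Log2 fold change between experiment codes (Exp-156b minus Exp-156, horizontal axis) of each tested gene in the Dhrs family and 5 related lists, with filled points for an edgeR adjusted p under 0.05 and a line at each list's median. The retinoid pathway has its median at -0.51, and the Dhrs family at -0.05.

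The genes around Dhrs7 were read for position. Of 12 tested genes within 1 Mb of Dhrs7, 11 had genotype groups that overlapped. The nearest, Pcnxl4 and the phosphatase gene Ppm1a, gave log2 fold changes of -0.05 (SE 0.11) and 0.05 (SE 0.10). The exception was Slc38a6, of an amino acid transporter family, whose start lies 621.9 kb from that of Dhrs7. It stood at 43.2, 48.1 and 48.2 CPM in WT and 34.2, 32.7 and 28.6 CPM in Tg-ACE, a log2 fold change of -0.55 (SE 0.10). The start of Trmt5 lies beside that of Slc38a6, and its log2 fold change was -0.09 (SE 0.13). Around Dhrs3, with 4 tested neighbours, around Dhrs13, with 39, and around Dhrs1 and Dhrs4, with 47 and 50 that largely coincide, 0 neighbours had groups that did not overlap. Around Dhrs7b 2 of 30 were higher and 1 lower without overlap, around Dhrs9 1 of 14 was higher and around Dhrs11 1 of 15, where 2.35% of all tested genes were higher and 2.52% lower.

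**Figure D4:**
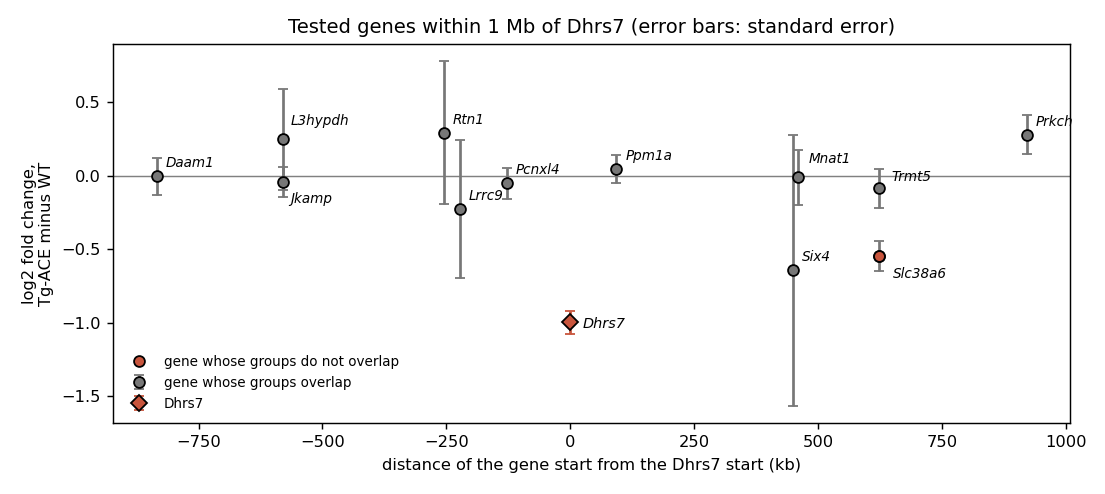
Log2 fold change between genotypes (Tg-ACE minus WT, with standard errors) of the tested genes within 1 Mb of Dhrs7, against the distance of their starts from that of Dhrs7 in kb. Dhrs7 at -0.999 and Slc38a6 at -0.55 are the points whose groups do not overlap, and Six4, at -0.64, has an SE of 0.92.

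The genes most like Dhrs7 in pattern were found by the root mean square difference between mean-centred log2 CPM profiles over the 6 libraries, among genes of at least 5 CPM. The nearest was Nudt16, a nucleotide hydrolase gene, with a difference of 0.19, at 40.4, 37.5 and 36.6 CPM in WT and 19.1, 25.8 and 19.5 CPM in Tg-ACE. Next came the gene model Gm17491 (0.23), Slc38a6 (0.24), the transcription factor Sp4 (0.27) and the endocytic adaptor gene Ston2 (0.30). Slc38a6, Sp4 and Ston2 lie on chromosome 12 with Dhrs7, from 73286779, 118234933 and 91633009, as do 3.45% of the 9730 genes compared. Nudt16 and Gm17491 lie on chromosomes 9 and 8. All were picked by likeness to the profile through which Dhrs7 was chosen, so nothing is read from their positions. Among tested genes of chromosome 12, 3.21% were lower in Tg-ACE without overlap, against 2.52% of all tested genes. Of the other Dhrs genes, Dhrs13 was under 5 CPM and not compared. Dhrs11 had a difference of 0.48 and ranked 1956th, and Dhrs1, Dhrs3, Dhrs4, Dhrs7b and Dhrs9 lay between 0.56 and 0.67.

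The other members had closer matches. The nearest to Dhrs3 were Anxa2 (0.03), a membrane-binding annexin at 1409 and 1465 CPM in Exp-156 and 706.4 to 868.6 CPM in Exp-156b, and Ap1b1 (0.05). The nearest to Dhrs9 were Hip1 and Tm6sf1 (0.05 and 0.06), to Dhrs7b Cr1l and Dusp22 (0.04 each), to Dhrs4 Pik3ap1 and Snw1 (0.02 each), to Dhrs11 Rpf2 and Alcam (0.04 each) and to Dhrs1 Surf1 and Atp5h (0.03 and 0.04). Dhrs13, the gene with the fewest counts, had Arsb (0.07) and Csrnp2 (0.12).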

How the data were processed

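Poly-A RNA from 6 macrophage preparations had been sequenced as single reads of 75 bases from stranded libraries, per the labels' protocols. Expected counts for each gene, not normalized, were deposited in 1 table. The submitters' processing notes list STAR 2.5.0, RSEM 1.2.25, mm10 and GRCh38, without their roles. Between 11.0% and 11.4% of values were not whole, and counts were rounded. Spike-in rows (92, with 1 count in all) were left out, and 0 sample columns were unused. Groups follow the sample titles (the design text says Tg-NKO for Tg-ACE), and codes follow the descriptions. No libraries were identical: over all pairs, the lowest mean chi-square for a gene was 12.8.

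Genes were tested in edgeR 4.0.16 (R 4.3.3), quasi-likelihood, with TMM, filterByExpr and Benjamini-Hochberg adjustment at 0.05 over all tested genes, and in DESeq2 1.42.0 as an alternative. The scripts were tested on simulated data. Standard errors come from the F statistic (the estimate over the root of F). CPM use TMM-scaled totals, log2 CPM a prior count of 2, and levels per kb the union of GENCODE vM21 exons. Counting limits cover counting error only. Same-numbered libraries deviated together (correlations of 0.856, 0.483 and 0.637), but crossed pairs of replicates 2 and 3 did as well (0.539 and 0.615), so the numbers follow the codes.

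The members and lists were chosen with earlier results of these data known. Named genes were the members, up to 4 per list with the largest change among those called between codes and up to 4 whose genotype groups do not overlap, up to 6 neighbours of Dhrs7 whose groups do not overlap, and the nearest profiles. Pcnxl4, Ppm1a, Trmt5, Six4 and the genotype value of Hsd17b14 were added after their values were seen. Dhrsx was not analysed here. A gene that the naming rule picked is not reported here. Hsd17b8 and Bcmo1 were matched through RefSeq synonyms.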

Additional observations from a re-analysis of the deposited data

How the results depend on the processing

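The Dhrs7 log2 fold change between genotypes lay between -1.04 and -0.98 with each replicate left out in turn, and was -0.94 in Exp-156 alone, 1 library against 1. The number of members called between genotypes, 0 in the fit on genotype alone, was 1, Dhrs7, in DESeq2, with the experiment code as a term, with the replicate block and in the Exp-156b libraries alone, and 0 with any replicate left out. Over all genes these settings called 9, 2, 2 and 2. Dhrs7 was chosen by this contrast, so these counts describe the settings and are no evidence for its difference. The replicate block changed no other call of a member. Between the codes 5 members passed, 3 in DESeq2 and 2 to 5 with a replicate left out, where 3553 to 5260 of all genes passed against 5732. The Dhrs1 value of -0.03 lay between -0.24 and 0.18 with a replicate left out, at 0.18 without WT replicate 1 and 0.05 without WT replicate 3. Among alternatives chosen after the data were seen, the retinoid count of 8 was 11 without WT replicate 2. Without WT replicate 1 or Tg-ACE replicate 1, the retinoid count and the count of 17 other SDR genes were lower, as was the count over all genes. For the interaction 0 members passed under every setting run, while DESeq2 called 13 genes and edgeR 10 without WT replicate 3. It could not be fitted without either Exp-156 library. Where 1 library of a code or arm was left, it is assumed to vary like the others. The 211 counts of Dhrs13 limit its precision.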
